A study of Mus musculus with 19 samples.

Results

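Trp53, Cdkn2a and 7 related tumor suppressor genes were described by their RNA level in primary p53/MCA sarcomas. The 9 members were Trp53, Mdm4, Cdkn2a, Cdkn2b, Cdkn2c, Cdkn1b, Rb1, Trp73 and Nf1, taken by symbol from a table of 48795 gene identifiers. RNA sequencing values of 19 tumors were used, 1 library per tumor, 11 from Rag2-/- mice and 8 from Rag2+/- littermates. Rag2-/- mice lack the recombinase that T and B lymphocytes need to form their receptors. In both genotypes the gastrocnemius of mice aged 6 to 10 weeks was injected with an adenovirus for transient expression of Cas9 and a guide against Trp53, and then with 300 µg of the carcinogen 3-methylcholanthrene (MCA). No tumor was treated, and tumors were collected at about 70 to 150 mm3. Every tumor therefore came from Trp53 targeting, and tumors without it were not analysed here. Tumor pieces were bulk tissue and could hold muscle, blood vessel, fat and immune cells beside sarcoma cells. Tumors are named here by their library codes, S41 to S51 for Rag2-/- and S52 to S60 for Rag2+/-.

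The p53 protein, encoded by Trp53, arrests or kills cells with damaged DNA, and Mdm4 binds and restrains it. Cdkn2a encodes 2 unrelated proteins from alternative first exons, p19Arf, which protects p53 from Mdm2, and p16Ink4a, which inhibits the kinases Cdk4 and Cdk6. Cdkn2b and Cdkn2c encode the related inhibitors p15Ink4b and p18Ink4c, and Cdkn1b encodes p27Kip1, an inhibitor of Cdk2. These kinases inactivate Rb1, the brake on E2F transcription factors and DNA replication. Trp73 is a relative of Trp53, and Nf1 encodes neurofibromin, which switches RAS off. Trp53, Cdkn2a, Rb1 and Nf1 are among the tumor suppressors known from soft tissue sarcoma.

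Values are FPKM (fragments per kilobase of gene and per M mapped fragments) that the authors scaled to the upper quartile, raised by 0.1 and took to log2, so that a gene without fragments has −3.32, the floor. Levels of different genes can be set side by side because FPKM is given per length. The estimated depth was 24.8 to 33.7 M fragments on genes in 18 tumors and 5.25 M in S41. The study's own analysis of these libraries lists 15 of the 19 tumors, without S41, S46, S51 and S56. The T cell list of 8 genes, a check of the genotype labels, ranged from −2.26 to −1.20 in Rag2-/- and from 0.10 to 2.64 in Rag2+/- tumors without overlap, and Cd3e was at the floor in all 11 Rag2-/- tumors. The mean of 10 skeletal muscle genes ran from 4.29 to 13.17, and it was highest in S56, S60, S59 and S51, at 12.30 or more. The fibroblast and mesenchymal list of 9 genes was at 7.17 to 8.33 in 15 tumors and at 5.67 to 6.7 in those 4.

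Cdkn2a (ENSMUSG00000044303) occupies bases 89274471 to 89294653 of chromosome 4 (GRCm38, minus strand), and Cdkn2b (ENSMUSG00000073802) starts 11645 bases beyond its end, from 89306299 to 89311039 on the same strand. The promoter windows of these neighbors are shown because their RNA levels moved together across the tumors. Each holds 250 bases before and 50 bases after an annotated start, read 5′ to 3′ on the gene's strand from RefSeq on GRCm38.p6. The first Cdkn2a window, chr4:89294570-89294869, belongs to the outer start that gives p19Arf, and the second, chr4:89282143-89282442, to the inner start that gives p16Ink4a. The Cdkn2b window is chr4:89310983-89311282. Capitals mark the letters GGGCGG, a GC box, and the E2F-type letters TTTCCCGC, each searched on both strands.
Cdkn2a outer start: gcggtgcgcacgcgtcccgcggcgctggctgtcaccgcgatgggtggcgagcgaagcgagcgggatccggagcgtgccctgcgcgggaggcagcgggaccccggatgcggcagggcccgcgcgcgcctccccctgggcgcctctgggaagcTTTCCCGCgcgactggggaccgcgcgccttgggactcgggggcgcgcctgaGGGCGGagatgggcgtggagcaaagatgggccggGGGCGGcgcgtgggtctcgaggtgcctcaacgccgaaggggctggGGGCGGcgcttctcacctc
Cdkn2a inner start: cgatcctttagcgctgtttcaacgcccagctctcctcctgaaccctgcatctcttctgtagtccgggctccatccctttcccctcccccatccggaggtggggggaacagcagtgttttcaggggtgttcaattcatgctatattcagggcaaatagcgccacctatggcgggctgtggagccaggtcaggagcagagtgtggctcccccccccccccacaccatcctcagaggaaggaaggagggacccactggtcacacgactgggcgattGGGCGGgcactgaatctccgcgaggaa
Cdkn2b: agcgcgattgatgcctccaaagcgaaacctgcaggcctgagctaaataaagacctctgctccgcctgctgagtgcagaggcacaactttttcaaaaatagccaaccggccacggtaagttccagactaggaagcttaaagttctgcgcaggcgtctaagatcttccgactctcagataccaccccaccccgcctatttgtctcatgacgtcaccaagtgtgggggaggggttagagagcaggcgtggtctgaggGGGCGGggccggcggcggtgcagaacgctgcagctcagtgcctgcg
The outer Cdkn2a window holds GGGCGG 3 times and TTTCCCGC once, and the other 2 windows hold GGGCGG once each. Of 32851 mouse promoter windows of this length, 35.7% hold GGGCGG and 1.07% hold TTTCCCGC. The other E2F-type letters searched, TTTCGCGC, TTTGGCGC and TTTGCCGC, were in 0.323%, 0.514% and 0.441% of the windows and in none of these 3. In all, 8 of the 9 members matched 12 windows, 7 of which hold GGGCGG. The deposited value is 1 number per gene, so the share of each Cdkn2a start in it cannot be read.

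By median level over the 19 tumors, Cdkn2a stood first at 8.41, or 340 normalized FPKM. Cdkn1b followed at 4.41, Cdkn2b at 4.41, Cdkn2c at 4.28 and Trp53 at 4.21. Rb1, Mdm4 and Nf1 were lower, at 2.84, 2.70 and 2.68, and Trp73 had a median at the floor. Cdkn2a was above Cdkn1b in 18 of 19 tumors, by 2.997 ± 1.84 (SD, n = 19) on the log2 scale. The neighbors from Cdkn1b to Trp53 in this order could not be told apart, since Cdkn1b exceeded Cdkn2b in 8, Cdkn2b exceeded Cdkn2c in 13 and Cdkn2c exceeded Trp53 in 7 of 19 tumors. Trp53 was above Rb1 in 19 of 19 tumors, by 1.48 ± 0.99 (SD, n = 19). Rb1 exceeded Mdm4 in 11 tumors and Mdm4 exceeded Nf1 in 10, differences within their spread.

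**Figure D1:**
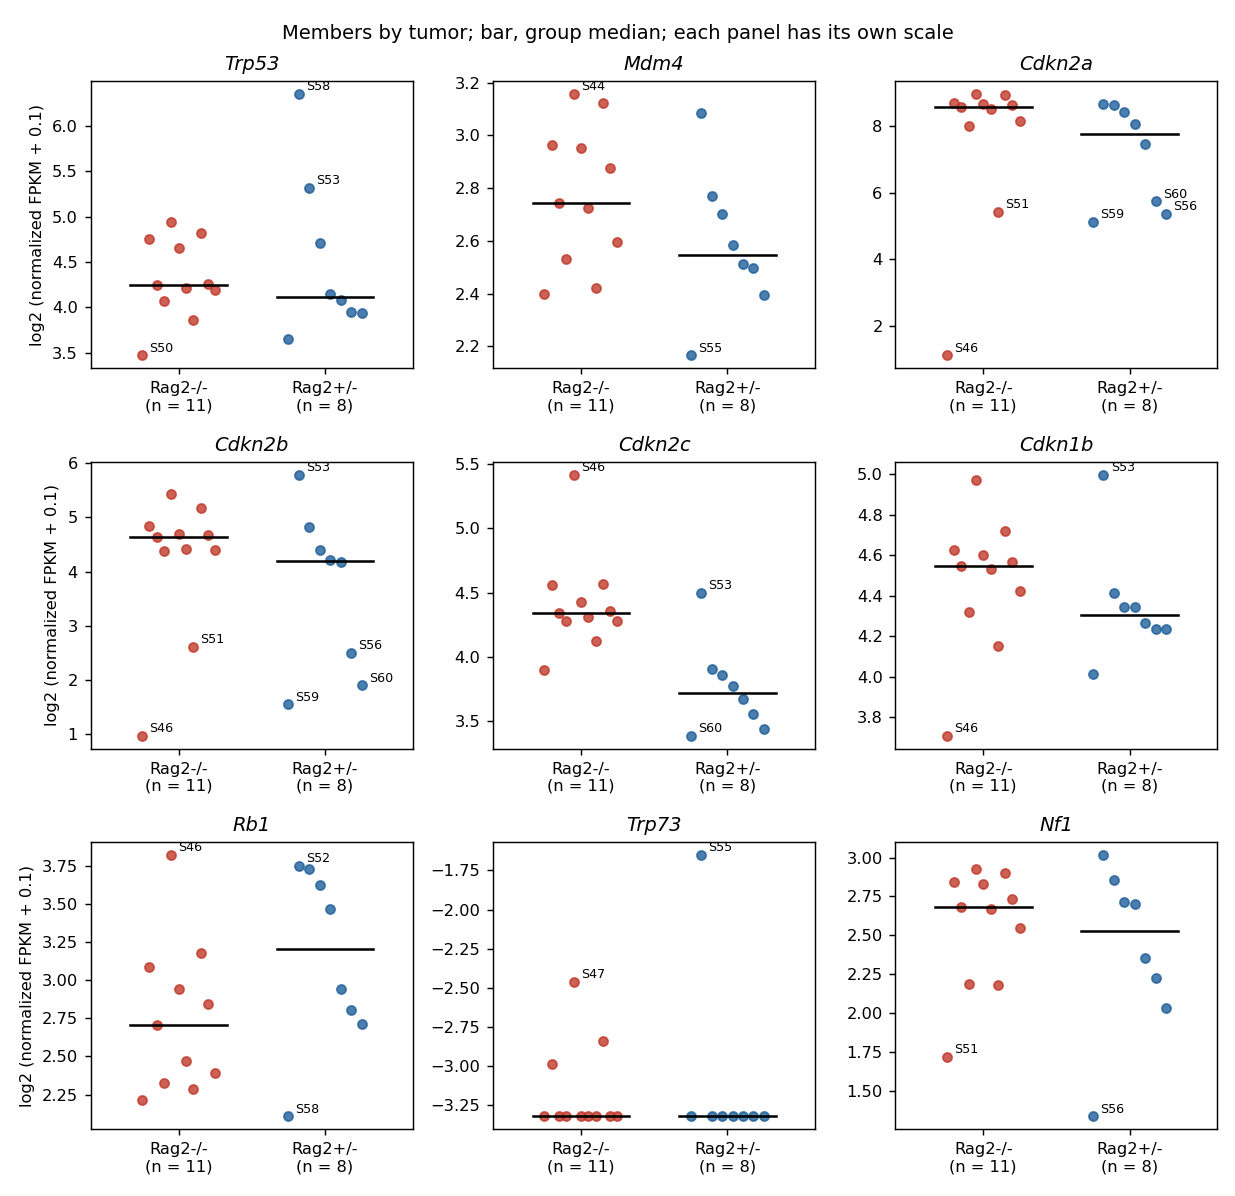
Level of each member by tumor, as log2 of normalized FPKM plus 0.1 on the y axis, for 11 Rag2-/- and 8 Rag2+/- tumors. Points are tumors, bars are group medians and each panel has its own scale. Cdkn2a in S46 lies at 1.12, far below all other tumors, and Trp53 in S58 lies at 6.35, above all others.

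Trp53 RNA was present in every tumor. The gene (ENSMUSG00000059552, chromosome 11, plus strand, 69580359 to 69591873) overlaps no other annotated gene. In Rag2-/- tumors its level had a lowest value of 3.47 in S50, a median of 4.25 and a highest value of 4.94 in S45. In Rag2+/- tumors these were 3.65 in S54, 4.12 and 6.35 in S58. The groups overlapped over the whole Rag2-/- range above 3.65, and S58 and S53, at 5.32, lay above every Rag2-/- tumor. S58 stood 1.03 above S53, 2.05-fold, and rested on an estimated 7791 fragments. A lone high tumor of at least 1 log2 unit above the next was seen for 5.06% of all 12826 genes tested, and among the 8 members tested for Trp53 alone. The RNA of the whole gene does not show what edits it carried.

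The p53 feedback partners did not share the high value of S58. Mdm2, which marks p53 for degradation and is itself a p53 target, was at 4.57 in S58, the median over the 19 tumors. Cdkn1a, the p53 target that encodes p21, was at 5.57 in S58 against a median of 5.80. Wrap53, the divergent neighbor on the minus strand that ends at 69580255, just before Trp53, was at 2.64 in S58, within its range of 1.51 to 2.89. The processed pseudogene Trp53-ps was at the floor in all 19 tumors. Of 151 pathway genes, S58 was the highest tumor for 13, fewer than S53 with 29, S48 with 26 and S56 with 24. Among the 13 were Ccnd1 at 7.53 and Cdk4 at 7.42, the D-type cyclin and its kinase.

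Mdm4 and Trp73 completed the p53 branch. Mdm4 (ENSMUSG00000054387, chromosome 1, minus strand, 132959484 to 133030561) varied least in range of the members above the floor, from 2.40 in S48 through a median of 2.74 to 3.16 in S44 in Rag2-/- tumors, and from 2.17 in S55 through 2.55 to 3.09 in S59 in Rag2+/- tumors. The groups overlapped, and no tumor stood 1 log2 unit apart. Trp73 (ENSMUSG00000029026, chromosome 4, minus strand, 154056253 to 154140208) was at the floor in 15 tumors. It was above the floor in S42, S45, S47 and S55, with 3.16 to 26.4 estimated fragments, and highest in S55 at −1.65. Its values were too few to compare, and Trp73os, which shares 280 exonic bases with it on the opposite strand, was at the floor in every tumor.

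Cdkn2a took 3 separate ranges of level. In 14 tumors it lay between 7.45 in S52 and 8.95 in S45, with a median of 8.59. In S51, S56, S59 and S60 it lay at 5.42, 5.36, 5.12 and 5.73. In S46 it was at 1.12, or 2.08 normalized FPKM and an estimated 46.2 fragments. The 5 low tumors came from both genotypes, S46 and S51 from Rag2-/- and the other 3 from Rag2+/- mice. The sample titles carry a further number for each tumor, whose meaning is not given in the sources used here. S51, S59 and S60 hold its highest values and S56 and S46 its lowest, and a relation of it to Cdkn2a was not tested. S46 lay 176-fold below the median of the 14 tumors, and the other 4 lay 7.23-fold to 11.1-fold below it. By group, the lowest, median and highest values were 1.12, 8.56 and 8.95 in Rag2-/- tumors and 5.12, 7.75 and 8.66 in Rag2+/- tumors.

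S46 was the only tumor that stood apart from the rest in Cdkn2a by the gap rule, 3.99 below S59. A lone low tumor of at least 1 log2 unit below the next was seen for 7.98% of genes tested, and among the 8 members tested for Cdkn2a alone. S46 itself was the lone lowest tumor for 120 genes and the lone highest for 312. Its adipocyte list, at 9.05, its macrophage list, at 8.31, and its endothelial list, at 4.75, were each the highest of 19, against highest values of 6.01, 7.33 and 4.38 elsewhere. Its skeletal muscle list, at 7.44, was within the range of the 14 tumors, and its fibroblast and mesenchymal list, at 7.17, lay just under their lowest value of 7.48. Its E2F target list, at 3.39, was within their range of 3.24 to 4.68. In bulk tissue, fewer cells of a type and less RNA per cell cannot be told apart, and the part of adipocyte, macrophage or vessel RNA in the low value of S46 was not tested. S46 is outside the 15 tumors of the study's own analysis, whose methods say that samples were dropped for poor quality or too little nucleic acid, and the reason for S46 is not given in the sources used here. How much of the tissue behind this library was sarcoma was not tested either, which touches each extreme value of S46.

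Cdkn2b followed Cdkn2a into the same 5 tumors. Its level was 0.96 in S46, 2.61 in S51, 2.49 in S56, 1.54 in S59 and 1.90 in S60, and 4.18 to 5.79 in the other 14. It lay 12.9-fold below the median of the 14 in S46 and 4.13-fold to 8.62-fold below it in the other 4. Cdkn2a exceeded Cdkn2b by 2.81 to 4.25 in the 14 tumors and by 2.81 to 3.83 in the 4, but by 0.16 in S46. Since the 5 tumors were set apart by their low Cdkn2a values, Cdkn2a separates them from the 14 by construction. Of the other 7 members tested, Cdkn2b alone lay lower in all 5 than in any of the 14, which held for 7.33% of all genes tested. In S51, S56, S59 and S60 without S46 the same was seen for 16.1% of genes tested, and among those 7 members again for Cdkn2b alone.

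Mtap on chromosome 4 was also lower in all 5 tumors than in any of the 14, as were 7.33% of genes tested. In the 4 without S46 the same held for 16.1% of genes tested. Mtap, the methylthioadenosine salvage enzyme whose gene ends 93389 bases before Cdkn2a, was at 2.89 in S51, 3.37 in S56, 3.51 in S46, 3.64 in S59 and 3.83 in S60, and at 4.83 to 5.63 in the 14 tumors. It lay 3.33-fold below their median in S46, where Cdkn2a lay 176-fold below, and 2.67-fold to 5.10-fold below it in the other 4. Dmrta1, on the far side of Cdkn2b, was at −2.95 in S46, at the floor in S51, S56, S59 and S60 and at −2.83 to 0.09 in the 14 tumors. With a median of −2.13 in the 14, it lay near the floor and below the level tested. Its order of tumors therefore cannot be read as a difference. Copy number and reads at the locus were not analysed here, so low RNA cannot be told apart from loss of a copy.

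**Figure D2:**
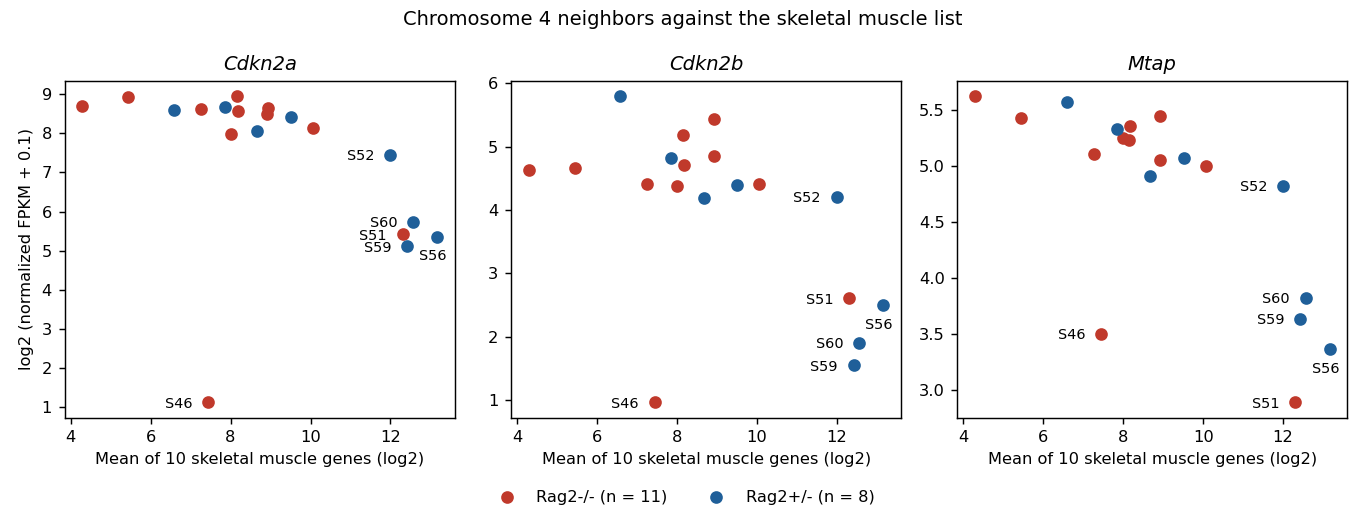
Level of Cdkn2a, Cdkn2b and Mtap (y axis, log2 of normalized FPKM plus 0.1) against the mean of 10 skeletal muscle genes (x axis, log2) in 19 tumors. The 4 tumors at 12.30 or more on the x axis are low in all 3 genes, S52 at 12.00 is not, and S46 is low with a muscle value of 7.44.

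The 4 tumors other than S46 were those with the most skeletal muscle RNA. Next to them in muscle level stood S52, at 12.00, with Cdkn2a at 7.45 and Cdkn2b at 4.21. Over all 19 tumors the skeletal muscle list had r = −0.43 and rho = −0.65 with Cdkn2a (adjusted permutation p = 0.11 and 0.0089 over 32 relations). Within genotypes r was −0.21 in Rag2-/- tumors, S46 among them, and −0.89 in Rag2+/- tumors. S46 had the lowest Cdkn2a with a muscle list of only 7.44, and r over the tumors without S46 alone was not computed. Across the 14 tumors r was −0.70 and rho −0.64 (permutation p = 0.0059 and 0.017, n = 14), but without S52, which had the lowest Cdkn2a and the most muscle RNA of the 14, they were −0.51 and −0.55 (permutation p = 0.074 and 0.055, n = 13). For Cdkn2b r was −0.30 and rho −0.31 in the 14 (permutation p = 0.29 and 0.27, n = 14). The same 4 tumors had low E2F target lists, at 1.27 to 2.28, against 3.24 to 4.68 in the 14. They also had the highest Mdm2 values, 5.15 to 5.84 against at most 5.10 elsewhere, and the highest Cdkn1a values, 6.97 to 7.65 against at most 6.81. The adipocyte list, which was at 9.05 in S46 and at 0.72 to 5.80 in these 4 tumors, had r = −0.79 with Cdkn2a over 19 tumors (adjusted permutation p = 0.0013 over 32 relations) and −0.37 in the 14 (permutation p = 0.18, n = 14). S47 had an adipocyte list of 6.01, above all 4 of these tumors, with Cdkn2a in the upper range at 8.13. The part of muscle or adipocyte RNA in the low Cdkn2a and Cdkn2b of these 4 tumors was not tested.

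Cdkn2c had the opposite extreme in S46. Cdkn2c (ENSMUSG00000028551, chromosome 4, minus strand, 109660876 to 109667189) was highest in S46 at 5.42, 0.85 above S47 at 4.57. In Rag2-/- tumors its lowest, median and highest values were 3.90 in S51, 4.34 and 5.42. In Rag2+/- tumors they were 3.39 in S60, 3.72 and 4.50 in S53. Every Rag2-/- tumor lay above the median of the Rag2+/- tumors, and the overlap came from 2 tumors, S51 just under S59, both at 3.90, and S53 at 4.50 within the range of the Rag2-/- tumors.

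Cdkn1b was the steadiest of the inhibitors. Cdkn1b (ENSMUSG00000003031, chromosome 6, plus strand, 134920401 to 134925513) had its lowest value in S46, at 3.71, with a median of 4.55 and a highest value of 4.97 in S48 in Rag2-/- tumors. In Rag2+/- tumors it ran from 4.01 in S52 through 4.31 to 4.998 in S53. The groups overlapped, and S46 was the lowest of 19. S46 was thus the lowest tumor for Cdkn2a, Cdkn2b and Cdkn1b and the highest for Cdkn2c and Rb1. Of 151 pathway genes, S46 was the highest tumor for 9 and the lowest for 11. The share of all genes for which S46 is the lowest or highest, whatever the gap, was not computed, so this only describes the members.

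Rb1 tended to be high where Cdkn2a was low, but S51, at 3.09, lay below S42 and S52 of the upper Cdkn2a range, at 3.18 and 3.75. Rb1 (ENSMUSG00000022105) lies on the minus strand of chromosome 14 from 73183673 to 73325822. It ran from 2.21 in S41 through a median of 2.71 to 3.82 in S46 in Rag2-/- tumors, and from 2.11 in S58 through 3.21 to 3.75 in S52 in Rag2+/- tumors. S58, the tumor with the most Trp53 RNA, had the least Rb1 RNA. Rcbtb2 and Lpar6 overlap Rb1 on the opposite strand and share 488 and 408 exonic bases with it, and whether counting used strand is not given in the sources used here. Across the 19 tumors their values had Pearson r of −0.04 and 0.06 with Rb1.

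The lowest Nf1 values came from a pair of muscle-rich tumors. Nf1 (ENSMUSG00000020716, chromosome 11, plus strand, 79339693 to 79581612) had its lowest value, 1.34, in S56, and its lowest Rag2-/- value, 1.72, in S51. The medians were 2.68 in Rag2-/- and 2.53 in Rag2+/- tumors and the highest values 2.93 in S50 and 3.02 in S53. Evi2a and Evi2b lie in introns of Nf1 on the opposite strand, share no exonic base with it, and had r of 0.25 and 0.24 with it over 19 tumors.

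The contrast of Rag2-/- with Rag2+/- tumors asked whether the members differed with the presence of lymphocytes. None of the 8 members tested passed limma at an adjusted p under 0.05, a threshold that 0.0312% of 12826 genes passed, namely the lymphocyte genes Igkc, Igha, Tnfrsf18 and Cd2, each with less RNA in the Rag2-/- group, 4 in all. At an unadjusted p under 0.05 stood 16.3% of genes and 1 of the 8 members, Cdkn2c. The median difference over all genes was 0.06. Cdkn2c had a mean of 4.41 ± 0.38 (SD, n = 11) in the Rag2-/- and of 3.76 ± 0.35 (SD, n = 8) in the Rag2+/- group, a difference of 0.65 with a limma SE of 0.17 or 1.57-fold. Its p was 9.53e-04 by a two-sided exact permutation test over the 75582 ways to choose 11 of 19 tumors, and its limma adjusted p over all genes was 0.30, so it did not pass. With array weights, which give less weight to tumors that vary more, 17 genes (0.133%) were called and Cdkn2c was among them, with a difference of 0.62 (limma adjusted p = 0.049). In the tumors without S46, S51, S56, S59 and S60 the Cdkn2c difference was 0.55 (exact permutation p = 0.0040, limma adjusted p = 0.38), and with the muscle list as a covariate it was 0.49 (limma adjusted p = 0.999).

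The other members differed by less than the spread between tumors. Trp53 had a mean of 4.31 ± 0.44 (SD, n = 11) in Rag2-/- and of 4.52 ± 0.91 (SD, n = 8) in Rag2+/- tumors, which differ by −0.20 with an SE of 0.30. Cdkn2a was at 7.60 ± 2.36 against 7.17 ± 1.52, a difference of 0.42 with an SE of 0.89. Cdkn2b differed by 0.54 with an SE of 0.60, and Rb1 by −0.39 with an SE of 0.24. Mdm4, Nf1 and Cdkn1b differed by 0.18, 0.16 and 0.11. The exact permutation p of these 7 members lay between 0.13 for Rb1 and 0.70 for Cdkn2a, and for Trp73, below the level tested with limma, it was 0.87. Without S46 the difference was 1.07 for Cdkn2a, 0.86 for Cdkn2b and −0.50 for Rb1 (exact permutation p = 0.095, 0.13 and 0.043). The skeletal muscle list had a mean of 8.09 ± 2.14 (SD, n = 11) in Rag2-/- and 10.35 ± 2.50 (SD, n = 8) in Rag2+/- tumors, and with it as a covariate the differences of Cdkn2a, Cdkn2b and Nf1 changed sign, to −0.45, −0.19 and −0.17. With the same covariate Trp53 differed by −0.52 with an SE of 0.30, Rb1 by −0.12 with an SE of 0.24, Mdm4 by 0.29 with an SE of 0.14 (limma adjusted p = 0.999, unadjusted 0.055) and Cdkn1b by 0.0080. In the 14 tumors without S46, S51, S56, S59 and S60 Trp53 differed by −0.55 (exact permutation p = 0.20). With the Xist level as a covariate, Cdkn2a differed by −0.24 with an SE of 0.77, Cdkn2b by 0.12 and Nf1 by 0.045. In the 15 tumors of the study's own analysis, where S59 and S60, both Rag2+/-, are the remaining tumors with low Cdkn2a, the Cdkn2a difference was 1.12 (two-sided exact permutation p = 0.032, limma adjusted p = 0.22). Without the 5 low tumors it was 0.32, a value that the choice of tumors by their Cdkn2a level narrows, so it is given without a test.

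**Figure D3:**
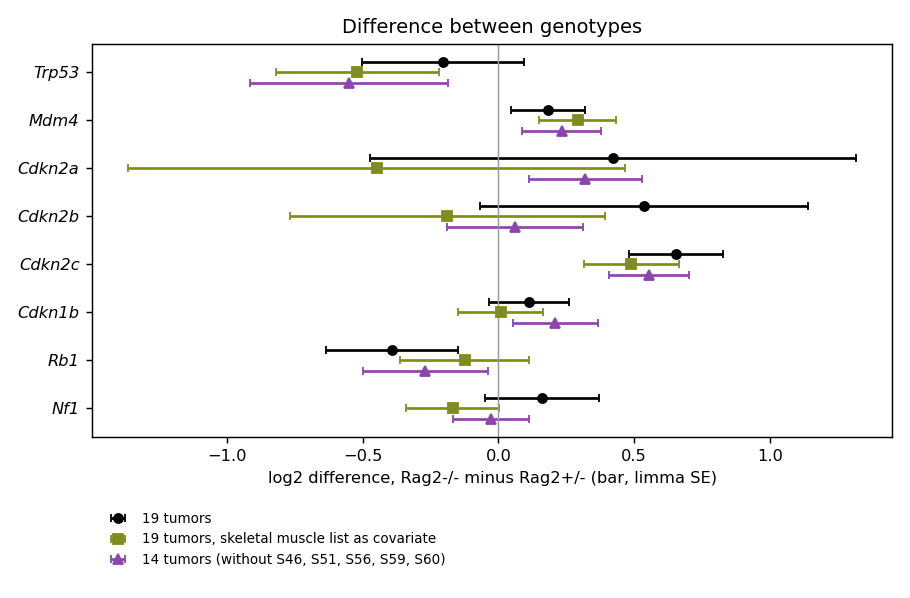
Difference in mean log2 level between Rag2-/- and Rag2+/- tumors (x axis, bars are limma SE) for the 8 members tested, in all 19 tumors, after adjustment for the skeletal muscle list and in the 14 tumors without S46, S51, S56, S59 and S60. Cdkn2c stays above 0 in all 3 fits, at 0.65, 0.49 and 0.55, while Cdkn2a turns from 0.42 to −0.45 after adjustment.

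Whether Cdkn2a RNA followed Trp53 RNA across tumors was the second question. Within the 14 tumors of the upper Cdkn2a range, Pearson r was 0.19 (permutation p = 0.51, n = 14) and Spearman rho 0.29 (permutation p = 0.32). Over all 19 tumors, which span the 3 ranges, r was 0.13 with a 95% interval of −0.35 to 0.55 (permutation p = 0.58, adjusted p = 0.79 over the correlations of Trp53 with all genes tested) and rho was 0.30 (permutation p = 0.21, adjusted p = 0.51). Within genotypes the sign differed, r = −0.21 in Rag2-/- (permutation p = 0.53, n = 11) and r = 0.58 in Rag2+/- tumors (exact permutation p = 0.13, n = 8). Without S58 and S53, the 2 tumors farthest from the median of Trp53, r was −0.06 (permutation p = 0.82). The 14 tumors were chosen by their Cdkn2a level, which limits its spread among them, and their Trp53 levels ran from 3.47 to 6.35. S46, with Cdkn2a at 1.12, had Trp53 at 4.65, rank 7 of 19 from the top, and the 4 muscle-rich tumors had Trp53 at 3.93 to 4.25. No relation was detectable with 19 tumors, and the interval still allows an r of up to 0.55.

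**Figure D4:**
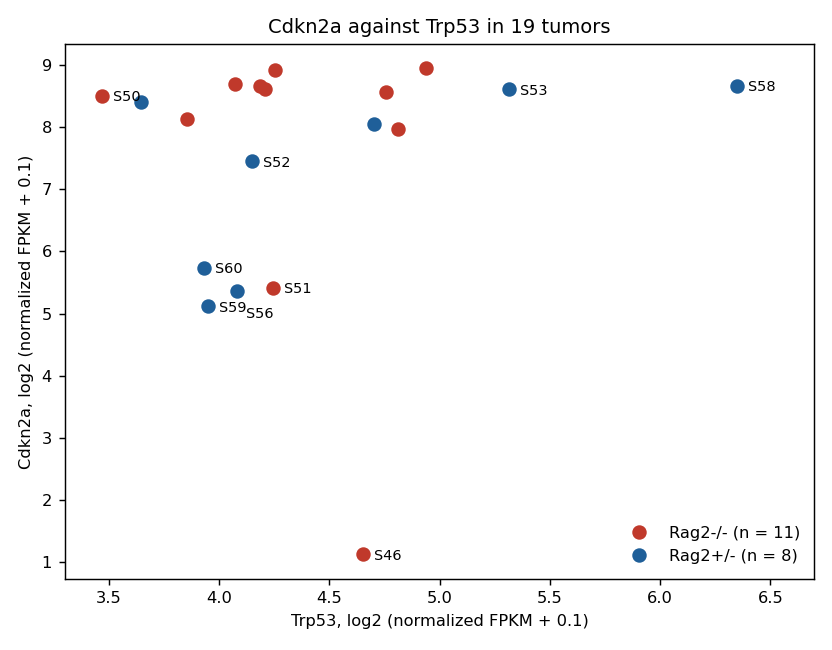
Cdkn2a level (y axis) against Trp53 level (x axis), both as log2 of normalized FPKM plus 0.1, in 11 Rag2-/- and 8 Rag2+/- tumors. The 14 tumors of the upper range lie at 7.45 to 8.95 by their choice and spread along the x axis from S50 to S58, with S51, S56, S59 and S60 below it and S46 at 1.12.

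Trp53 had no gene that followed it past the threshold. Of 12825 other genes, 0% correlated with Trp53 at an adjusted p under 0.05, by Pearson r or Spearman rho, and 0 of the 7 other members tested. The genes most like it were Ttc39b (r = 0.74, rho = 0.81), Tkfc (r = 0.69) and Tmem68 (r = 0.68), and those most unlike it were Rab30 (r = −0.71), Deaf1 (r = −0.68) and Rufy1 (r = −0.67), each with a permutation adjusted p of 0.61 over 19 tumors. With its targets Mdm2 and Cdkn1a, Trp53 had r of −0.17 and −0.26 (adjusted permutation p = 0.51 and 0.37 over 32 relations), and rho of −0.18 and −0.22. Within Rag2-/- tumors r was 0.12 and 0.29, and within Rag2+/- tumors −0.70 and −0.76, a difference that was not tested. The muscle-rich tumors had the highest Mdm2 and Cdkn1a values, as given above, and the part of muscle RNA in these r was not tested. Mdm2 and Cdkn1a followed each other, with r = 0.88 and rho = 0.88 over 19 tumors (permutation p = 1e-05 for each, the smallest that the permutations can give, adjusted p = 1.60e-04 and 3.20e-04). That r was 0.78 in the 14 tumors (permutation p = 0.0011), 0.93 in Rag2-/- and 0.81 in Rag2+/- tumors, and 0.82 without S51 and S59. Of 27 p53 target genes tested, 13 correlated positively and 14 negatively with Trp53, a median r of −0.07 beside 0.05 over all genes. With the skeletal muscle list Trp53 had r = −0.35 and rho = −0.53 (adjusted permutation p = 0.20 and 0.042 over 32 relations). In the 14 tumors these were −0.22 and −0.49 (permutation p = 0.45 and 0.082, n = 14). Within genotypes r was −0.11 in Rag2-/- and −0.72 in Rag2+/- tumors. With the E2F target list r was 0.35 and rho 0.46 (adjusted permutation p = 0.19 and 0.078).

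Cdkn2a, by contrast, shared its pattern with a large part of the table. At an adjusted p under 0.05 it correlated with 39.7% of the 12825 other genes and with 4 of the 7 other members tested. The genes most like it over 19 tumors were Crabp1 (r = 0.96), Mdk (r = 0.95) and Ccdc24 (r = 0.93), and those most unlike it were Chp1 (r = −0.96), Atp6v1b2 (r = −0.95) and Fzd4 (r = −0.95), all with an adjusted permutation p of 5.39e-04 or less. In the 14 tumors of the upper range these r were 0.44, 0.55, 0.64, −0.49, −0.83 and −0.56. These genes were chosen by their r, so the values describe them. By the same measure the genes most like Cdkn2b were Etv4 (r = 0.96) and Adgrl3 (r = 0.95), those most like Rb1 Wwp1 and Atp6v0a1 (r = 0.89 each), and those most like Nf1 Pdcd11 and Zfp451 (r = 0.95 each). For Cdkn1b they were Gpn3 (r = 0.87) and Nprl3 (r = 0.86), for Cdkn2c Tbc1d9b (r = 0.85) and Cant1 (r = 0.81), and for Mdm4 Scnm1 (r = 0.69) and Gm28529 (r = 0.66).

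The members differed in how many partners they had among themselves. Of 36 pairs, 28 were tested against all genes, and 8 passed an adjusted p of 0.05 over the correlations of the gene named first. The 6 pairs among Cdkn2a, Cdkn2b, Rb1 and Nf1 also passed over those of the other gene. The pairs of Cdkn1b with Cdkn2a and Cdkn2b passed over the correlations of Cdkn2a and Cdkn2b, and over those of Cdkn1b their adjusted permutation p was 0.12 and 0.13. By the same threshold 39.7% of the 12825 other genes correlated with Cdkn2a, 55.3% with Cdkn2b, 48.2% with Rb1 and 61.5% with Nf1, so that a pair past it with one of these 4 genes is common in this table. For Cdkn1b the share was 0.0234%, and no member was among those genes. Cdkn2a and Cdkn2b had r = 0.92 and rho = 0.87 over 19 tumors (permutation p = 1e-05, adjusted p = 4.14e-04), and r = 0.59 and rho = 0.68 within the 14 tumors (permutation p = 0.028 and 0.0097, n = 14). Without S46 and S59, the tumors farthest from the median of Cdkn2a, r was 0.92, and within genotypes it was 0.97 (permutation p = 3.10e-04, n = 11) and 0.95 (exact permutation p = 9.42e-04, n = 8).

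Rb1 ran against Cdkn2a inside the upper range as well as over it. Over 19 tumors r was −0.76 and rho −0.82 (adjusted permutation p = 5.39e-04 and 7.38e-04), within the 14 tumors r was −0.78 and rho −0.61 (permutation p = 0.0016 and 0.023, n = 14), and without S46 and S59 r was −0.72. It was −0.83 in Rag2-/- and −0.78 in Rag2+/- tumors, and −0.70 after the skeletal muscle list was taken out of both genes. S52 had the lowest Cdkn2a value, 7.45, and the highest Rb1 value, 3.75, of the 14 tumors, and r without it was not computed. Rb1 and Cdkn2b had r = −0.73 over 19 tumors (adjusted permutation p = 0.0025) and −0.17 in the 14, with rho = −0.31 (permutation p = 0.55 and 0.28).

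Nf1 rose with Cdkn2a and Cdkn2b. With Cdkn2a, r was 0.69 and rho 0.72 over 19 tumors (adjusted permutation p = 0.013 and 0.0043), and r was 0.88 without S46 and S59. In the 14 tumors r was 0.60 (permutation p = 0.025, n = 14) but rho was 0.38 (permutation p = 0.18), so that by rank the relation was not past the threshold there. With Cdkn2b, r was 0.76 over 19 tumors (adjusted permutation p = 0.0026) and 0.55 in the 14, with rho = 0.61 (permutation p = 0.040 and 0.023, n = 14). Nf1 fell as the skeletal muscle list rose, with r = −0.73 and rho = −0.63 over 19 tumors (adjusted permutation p = 0.0016 and 0.010 over 32 relations) and r = −0.47 in the 14 (permutation p = 0.090, n = 14).

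Cdkn1b and Cdkn2a had r = 0.61 over 19 tumors (adjusted permutation p = 0.024 over the correlations of Cdkn2a and 0.12 over those of Cdkn1b). In the 14 tumors r was 0.70 and rho 0.62 (permutation p = 0.0047 and 0.021, n = 14), and without S46 alone they were 0.34 and 0.52 (permutation p = 0.17 and 0.028). In Rag2-/- tumors r was 0.80 and rho 0.76 (permutation p = 0.012 and 0.0083, n = 11), and in Rag2+/- tumors 0.11 and −0.31 (exact permutation p = 0.86 and 0.46, n = 8), a difference between genotypes that was not tested. Cdkn2c and Cdkn2a had r = −0.21 and rho = 0.27 over 19 tumors (permutation p = 0.38 and 0.26), and r = 0.54 and rho = 0.49 without S46 (permutation p = 0.019 and 0.039), so that S46 set the sign of r and not that of rho. In the 14 tumors r was 0.52 and rho 0.31 (permutation p = 0.056 and 0.28, n = 14). After the skeletal muscle list was taken out of both genes, r over 19 tumors was −0.64 (permutation p = 0.018). That value includes S46, and no such r was computed without it. Cdkn2c and Cdkn1b had r = 0.10 and rho = 0.42 over 19 tumors (permutation p = 0.67 and 0.073), and 0.72 and 0.67 without S46 (permutation p = 7.20e-04 and 0.0032). Mdm4 had no pair past the threshold, with r between −0.20 and 0.26 over 19 tumors with the other 7 members tested.

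**Figure D5:**
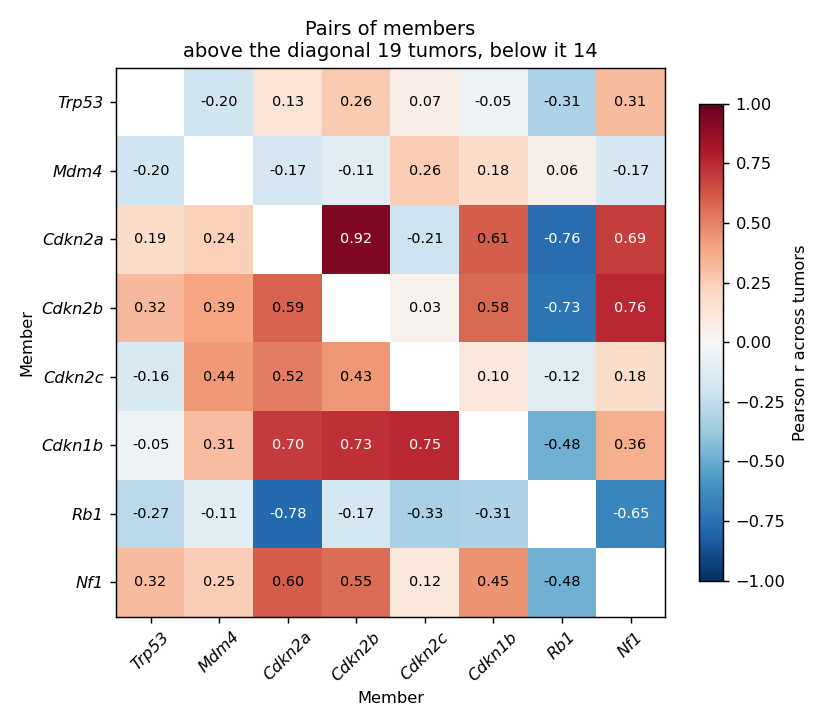
Pearson r for each pair of the 8 members tested, over 19 tumors above the diagonal and over the 14 tumors without S46, S51, S56, S59 and S60 below it, on a color scale from −1 to 1. Cdkn2a with Cdkn2b goes from 0.92 to 0.59 and Cdkn2a with Rb1 from −0.76 to −0.78, while every pair with Trp53 lies between −0.31 and 0.32 in both sets.

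The genes downstream of these inhibitors were read from gene lists. All 25 E2F targets, genes of DNA replication and the cell cycle, correlated positively with Cdkn2a over 19 tumors (median r = 0.67) and over the 14 (median r = 0.68), where 52.2% and 55.6% of all genes were positive. Their mean had r = 0.67 and rho = 0.82 with Cdkn2a (permutation p = 0.0034 and 4.00e-05, adjusted p = 0.0099 and 4.48e-04), 0.65 without S51 and S60, 0.55 in Rag2-/- and 0.97 in Rag2+/- tumors. With Rb1 all 25 correlated negatively, with a median r of −0.64 over 19 and −0.55 over 14 tumors, and with Nf1 all 25 positively, with a median of 0.81 and 0.54. Over all genes 45.8% were positive with Rb1 and 54.3% with Nf1 over 19 tumors, and 45.01% and 53.9% over 14. All 25 were also positive with Trp53 (median r = 0.34 over 19 and 0.36 over 14 tumors) and with Cdkn2c (0.39 and 0.44). Over 19 tumors 55.26% of all genes were positive with Trp53 and 55.99% with Cdkn2c. A sign shared by all 25 thus did not set Cdkn2a, Rb1 and Nf1 apart from Trp53 and Cdkn2c. How far the 25 genes vary together was not tested, so they do not count as 25 separate results. Ccnd1 and Cdk4 were low in the 5 tumors with low Cdkn2a. Ccnd1 was at 3.63 to 4.76 in them and at 5.84 to 7.53 in the 14, and Cdk4 at 5.40 to 5.80 against 6.07 to 7.42.

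Between genotypes the pathway lists showed no gene past an adjusted p of 0.05. Among p53 targets, 3 of 27 tested were higher and 6 lower in Rag2-/- tumors at an unadjusted p under 0.05, with a median difference of −0.03. Over all genes tested these shares were 6.74% higher and 9.56% lower. Ddb2 and Bbc3 had differences of 0.39 and 0.41, and Polk and Mdm2 of −0.54 and −0.55 (limma adjusted p = 0.30 each). Among 19 p53 regulators, 2 were higher and 2 lower, led by the DNA damage kinase Atm at 0.59 and Twist1 at 0.83, and by Mdm2 and Usp2, the latter at −1.59 (limma adjusted p = 0.30 each). Among 24 genes of cyclin D, CDK and RB, 1 was higher and 2 lower, Ccnd3 at 0.39, and Tfdp2 at −0.58 and Rbl2 at −0.38 (limma adjusted p = 0.30 each), while Cdk2 differed by 0.59 without passing. All 25 E2F targets had a positive difference, as had 56.2% of all genes, with a median of 0.58, and none had an unadjusted p under 0.05. Mcm5, a subunit of the replicative helicase, differed by 0.83 (limma adjusted p = 0.34). The E2F target list was low in the muscle-rich tumors as given above, and the part of muscle RNA in these differences was not tested.

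Of the remaining lists, the 20 regulators of Ink4a and Arf had 1 gene higher and 0 lower at an unadjusted p under 0.05, Foxo3 at 0.49, while the Polycomb genes Suz12 and Bmi1 differed by 0.35 and −0.19 and Cbx7 by −0.74. The 11 RAS GTPase activating proteins and SPRED genes tested, relatives of Nf1 in function, had 1 higher, Rasa3 at 0.36, and a median difference of 0.28, with Dab2ip and Rasa4 at −0.25 and −0.06. Among 12 other sarcoma tumor suppressors, Atrx differed by 0.37 and Fbxw7, a ubiquitin ligase of cyclin E, by −0.60 (limma adjusted p = 0.30 each), with Setd2 and Tsc2 at 0.28 and −0.31. Among 8 neighboring or overlapping genes, 1 was higher and 2 lower, Evi2a at 0.57, and Atp1b2 at −2.17 and Faf1 at −0.57 (limma adjusted p = 0.30 each), with Evi2b at 0.46. The skeletal muscle genes had a median difference of −2.24, and the part of muscle RNA in the difference of Atp1b2 was not tested.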

How the data were processed

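RNA of 19 tumors, 1 library each, was prepared by the authors with the NEBNext Ultra II RNA kit and sequenced in pairs. Per the study's methods, the authors aligned reads with the Omicsoft aligner to mouse B38 and Ensembl R86 genes, computed FPKM, normalized them to the upper quartile and deposited log2 values. The submitters' processing notes also name Trimmomatic 0.36, STAR, HTSeq and mm10, and which tool made the deposited values was not settled. The floor of −3.32 shows that 0.1 was added, and 63.0% of values lie there. Of 48795 identifiers, 48349 matched a symbol. Count models were not used, since normalized log2 values are no counts. Depth and fragments are estimates from the low values and GENCODE vM21 transcript lengths, taken as whole within 0.05 fragments for 77.4% to 87.7% of values in 18 tumors and 85.8% in S41.

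Genes with a mean above 0, 12826, were compared with limma 3.58.1 in R 4.3.3 (intensity trend, Benjamini-Hochberg adjustment over all of them). Each member was also tested alone over every relabeling of the 19 tumors (exact, two-sided, at best p = 1.32e-05). Correlations used 100000 permutations, or all permutations within the 8 Rag2+/- tumors, and adjusted p over the 12825 other genes. The tests were tested on simulated data. They ran in Python 3.11.15 with scipy 1.17.1, pandas 2.3.3 and numpy 2.4.6. The members and the 17 lists were chosen with earlier results of these data known. Named are all members, per pathway list up to 2 genes with the lowest limma p in each direction and any gene with an adjusted p under 0.05, the genes most like or unlike Trp53 and Cdkn2a by Pearson r (3 each), the 2 most like each other member, and Mdm2, Cdkn1a, Mtap, Wrap53, Cdk4, Ccnd1 and Trp53-ps. Some genes that this rule names are not reported here. Dmrta1, Rcbtb2, Lpar6 and Evi2b lie beside or in members. The deposited table carries 1 batch label for all 19 tumors, and no batches among them are given in the sources used here, so p-values measure the spread between these tumors. The tests treated the tumors as unrelated, and any grouping by litter or by the further number in the sample titles was not tested.

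The alternatives were the 15 tumors, S41 or each tumor left out, pseudocounts of 1 and 0.01, quantile normalization, a shift to the same median, filters at 2 and none, other variance models, muscle and Xist covariates and gaps of 1.5 and 0.75. Leaving out S46, or S46 with S51, S56, S59 and S60, was chosen after seeing the data, as were muscle residuals for pairs, the adjustment over the second gene of a pair, each of the 14 tumors left out of the muscle relation and the member differences with array weights or Xist. Exomes were not analysed here.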

Additional observations from a re-analysis of the deposited data

Results flagged for a closer look

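In the 8 Rag2+/- tumors, S53 lay apart from the others for 2 members. Its Cdkn2c value of 4.50 lay above the next highest of 3.90 by a gap of 0.535 of the whole range, over the limit for 8 samples. Its Cdkn1b value of 4.998 lay above the next highest of 4.41 by a gap of 0.592 of the range. Such a gap arises by chance in about 1 of 20 groups, and 8 members were looked at for a high and a low tumor each. The 11 Rag2-/- tumors are too many for this rule, so S46 was not judged by it. S53 also had the highest Cdkn2b and Nf1 values of all 19 tumors, 5.79 and 3.02.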

How the results depend on the processing

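The count of genes called between genotypes, 4, was 15 in the 15 tumors, 0 with a mean above 2 (1676 at an unadjusted p under 0.05), 26 without a filter, 17 with array weights, 2 with the muscle covariate and 8 in the 14 tumors, and 3 to 7 with each tumor left out. No member was among the 4, and Cdkn2c was among the 17 with array weights (0.62, limma adjusted p = 0.049). The Cdkn2a difference was 1.12 in the 15 tumors and −0.45 and −0.24 with the muscle and Xist covariates, that of Cdkn2b −0.19 with the covariate, that of Rb1 −0.50 without S46 (exact permutation p = 0.043), that of Trp73 0.10 with a pseudocount of 0.01, and that of Nf1 −0.027 in the 14 tumors and −0.17 with the covariate. With each tumor left out, differences ran from −0.33 to 0.059 for Trp53, 0.12 to 0.25 for Mdm4, 0.13 to 1.07 for Cdkn2a, 0.23 to 0.86 for Cdkn2b, 0.55 to 0.76 for Cdkn2c, 0.06 to 0.20 for Cdkn1b, −0.54 to −0.30 for Rb1, −0.13 to 0.15 for Trp73 and 0.0089 to 0.25 for Nf1. Leaving out S58 turned the sign of Trp53, and leaving out S55 that of Trp73. The exact permutation p fell under 0.05 for Mdm4 without S59 (0.25, p = 0.048) and for Rb1 without S58 (−0.54, p = 0.034). The r of Cdkn2a with Trp53 ran from 0.03 to 0.30 in this way, and was −0.21 within Rag2-/- tumors, −0.062 without the 2 tumors farthest from the median of Trp53 and −0.024 for muscle residuals. With gaps of 1.5 and 0.75, 198 and 1229 genes had 1 high tumor and 414 and 1650 had 1 low tumor, and 0 and 2 members had 1 high tumor. Within Rag2+/- tumors r was 0.11 for Cdkn2a and Cdkn1b, 0.27 for Cdkn2b and Cdkn1b, −0.68 for Cdkn2b and Rb1 and −0.67 for Rb1 and Nf1. Without S46 it was 0.34 and 0.40 for Cdkn1b with Cdkn2a and Cdkn2b, and 0.37 and 0.45 without the 2 farthest tumors. In the 14 tumors it was −0.17 for Cdkn2b and Rb1 and −0.48 for Rb1 and Nf1, and −0.41 for the latter as muscle residuals. Adjusted over the correlations of Cdkn1b, the r of 0.61 with Cdkn2a and 0.58 with Cdkn2b no longer passed (adjusted permutation p = 0.12 and 0.13). The causes were not tested. No paired analysis was made. The replicate numbers are tumor codes that the groups do not share, and the labels do not say which mice were littermates. The further number in the sample titles was not used to group tumors. S41, the shallowest tumor, was left out of the genotype contrast, the member differences and the relation of Cdkn2a to Trp53, and no call changed there. The gap rule and the member pairs were not repeated without it.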
